A study of Homo sapiens with 8 samples.

Results

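The genes described here are mostly long non-coding transcripts that carry small RNAs, together with the abundant nuclear RNAs MALAT1 and NEAT1. They were the rows of the count table whose deposited symbol was SNHG followed by a number, MIR followed by a name ending in HG, or GAS5, ZFAS1, EPB41L4A-AS1, DLEU2, MALAT1 or NEAT1. The rule found 72 of the 30434 genes in the table, of which 23 are snoRNA hosts, 47 are microRNA hosts and 2 are MALAT1 and NEAT1. EPB41L4A-AS1 has no symbol in the table, so the rule did not find it. It is described after them, with the other hosts, 21 in all, that were recognised only through an Ensembl name table. SKBR3, an established human breast cancer line with amplified ERBB2, was compared as 4 control libraries, whose genotype the labels give as WT, and 4 libraries of a line in which FOXA1 was knocked down. The knockdown line stably expressed short hairpin RNAs against FOXA1, delivered by lentivirus as 3 individual hairpins, per the series' design text. Both kinds of cells were grown in DMEM with fetal bovine serum. Whether the control cells received a vector, whether the knockdown line is a clone or a pool, and whether the replicates came from separate cultures are not stated in the labels, so p-values measure the spread between these libraries, which may be technical.

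Small nucleolar RNAs (snoRNAs) guide chemical modification of ribosomal RNA, and most human snoRNAs are cut out of introns of a host transcript after splicing. The spliced host is in many cases a short-lived RNA degraded by nonsense-mediated decay, so the level of the spliced host and that of its snoRNAs need not follow each other. MicroRNAs are cut from hairpins in a longer primary transcript by DROSHA and DICER1, and bases 2 to 8 of the mature RNA, its seed, pair with target mRNAs. MALAT1 is retained in nuclear speckles, and NEAT1 is the scaffold of paraspeckles, bodies in which it is bound by proteins such as NONO and SFPQ. FOXA1 is a forkhead transcription factor that opens chromatin at luminal enhancers in breast epithelium.

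The libraries held between 19087878 and 23786684 counts. FOXA1 fell from 191.4 ± 1.65 to 3.95 ± 0.340 CPM, counts scaled to library size by TMM and to 1000000 counts (SD, n = 4 per group), which is 2.06% of control (edgeR quasi-likelihood test, adjusted p = 3.19e-30). All 9 genes of the list that defines SKBR3 were measured in every library. Of these ERBB2, KRT19, KRT7 and GRB7 fell by 2.45, 1.87, 1.79 and 1.54 on the log2 scale, KRT18, EPCAM, KRT8 and CLDN4 rose by 0.58, 0.33, 0.31 and 0.08, and CLDN3 was not called. ERBB2 was left at 18.3% of control, and the list summed to between 19100 and 21267 CPM in control and between 12115 and 13034 CPM in knockdown. The fibroblast markers DCN and COL1A2 and the leukocyte marker PTPRC had 3 or fewer counts in every library. The summed level of the fibroblast list, of which 5 of 6 genes have a row, lay between 5.26 and 6.97 CPM in control and between 10.8 and 11.9 CPM in knockdown, with COL3A1 and PDGFRB higher and COL1A1 lower. The immune list summed to between 1.14 and 1.76 CPM in control and between 1.34 and 1.80 CPM in knockdown, and the endothelial list to between 20.7 and 22.1 CPM and between 19.8 and 22.4 CPM. The part of any such genes in the results on host genes was not tested. On the second principal component, which held 1.82% of the variance, control replicate 3 lay at -40.1 and the other 7 libraries between -8.57 and 16.3. Without it GAS5, MIR31HG and MIR4453HG were no longer called (log2 fold changes 0.06, -0.69 and 0.23, adjusted p = 0.100, 0.0919 and 0.147), and SNHG16 was called lower (-0.08, adjusted p = 0.0370).

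Host genes were called both higher and lower in the knockdown libraries, with SNHG26 and MIR646HG the largest rises and MIR34AHG and MIR99AHG among the largest falls. Of the 72 genes, 48 had enough counts to be tested. Of these, 37 passed an adjusted p of 0.05, against 77.1% of all 16430 genes tested. In knockdown 19 were higher, against 39.4% of all genes tested, and 18 were lower, against 37.7%. A change of at least 2-fold was called for 5 that were higher, against 14.9% of all genes tested, and for 7 that were lower, against 13.4%. The CPM ranges of the groups did not overlap for 31 of the 48, against 71.9% of all genes tested. These shares are near those of all genes, so the number of calls is not particular to host genes. The median log2 fold change of the 48 was -0.05, beside 0.02 over all genes tested. With library totals in place of TMM scaling, 20 were called higher and 12 lower.

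Changes were small in most snoRNA hosts and wider in microRNA hosts. Among the 20 tested snoRNA hosts 11 were higher, 5 lower and 4 not called, with a median log2 fold change of 0.15 and a median absolute log2 fold change of 0.24. Among the 26 tested microRNA hosts 8 were higher, 11 lower and 7 not called, with a median of -0.17 and a median absolute log2 fold change of 0.68, beside 0.51 over all genes tested. A change of at least 2-fold was called for 1 snoRNA host and for 10 microRNA hosts, 4 of them higher and 6 lower, which is 5% of tested snoRNA hosts and 38.5% of tested microRNA hosts, beside 28.3% of all genes tested. Where the mean count was at least 50, the median absolute log2 fold change was 0.23 for 19 snoRNA hosts and 0.59 for 18 microRNA hosts. MALAT1 and NEAT1 were both lower. The difference between the classes was not tested.

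As a share of all counts, the snoRNA hosts took 0.122% ± 0.00327 in control and 0.147% ± 0.00458 in knockdown (SD, n = 4 per group), and the groups did not overlap. The microRNA hosts took 0.0147% ± 0.000140 and 0.0158% ± 0.000283, again with no overlap, although 11 of them were called lower and 8 higher. MIR1915HG, the highest of them in control, went from a mean of 22.8 to 43.9 CPM. All shares given here are of library totals without TMM scaling. MALAT1 and NEAT1 together took 0.0678% ± 0.00823 in control and 0.0334% ± 0.00382 in knockdown. All 72 genes together took 0.205% and 0.196%, with overlapping groups. The table comes from whole cultures, so fewer cells of a type and less RNA per cell cannot be told apart.

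**Figure D1:**
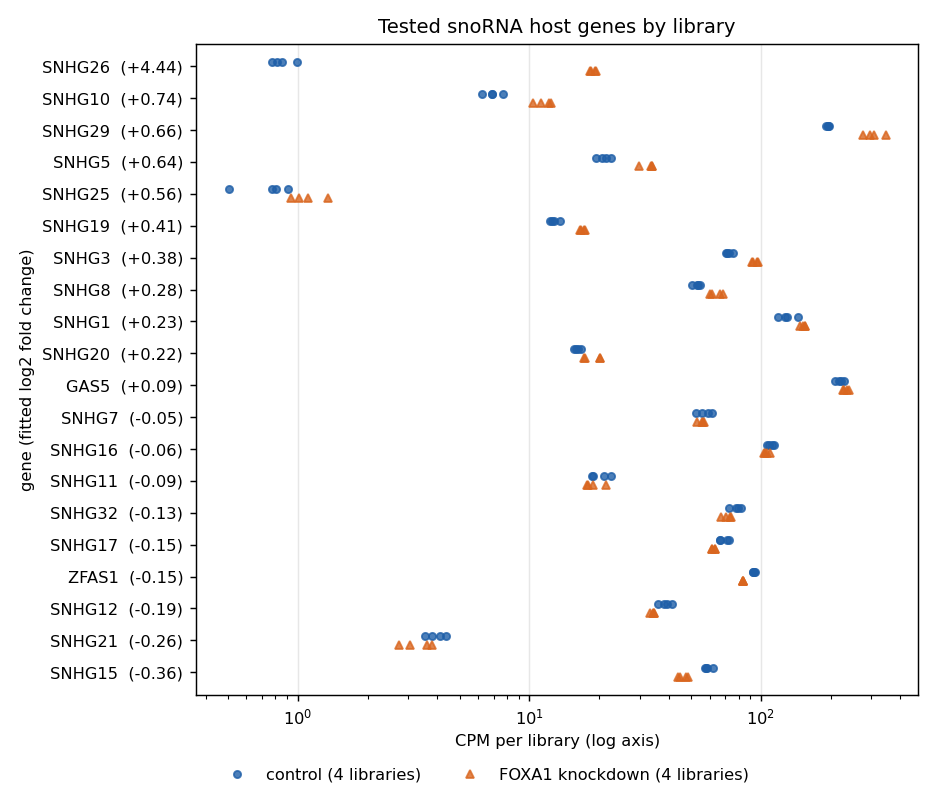
CPM of each tested snoRNA host in the 4 control (circles) and 4 FOXA1 knockdown (triangles) libraries on a log axis, with the fitted log2 fold change beside each name. SNHG26 moves from below 1 CPM in control on average to a mean of 18.8 CPM in knockdown, and for the other genes the groups lie near each other.

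SNHG26 (chr7:22854178-22861579, plus strand, GENCODE 29 on GRCh38) rose most among the 48. It carries the box C/D snoRNA SNORD93 in an intron. In the order of replicates 1 to 4, which is kept for all genes, SNHG26 had 17, 18, 18 and 23 counts in control and 455, 446, 362 and 415 counts in knockdown. All knockdown libraries lay far above all control libraries. Its level went from 0.859 ± 0.0924 to 18.8 ± 0.537 CPM, which is 21.9-fold on the linear scale and 4.44 ± 0.08 (SE) on the log2 scale (edgeR quasi-likelihood test, adjusted p = 3.27e-22; exact two-sided permutation p = 0.0286, the smallest p that 4 against 4 libraries allow).

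SNHG10, SNHG29 and SNHG5 were the next highest changes among snoRNA hosts with a mean of at least 50 counts. SNHG29, the host of SNORD49A, SNORD49B and SNORD65, lies at chr17:16438822-16478678 on the plus strand. It had 4161, 4304, 4089 and 4548 counts in control and 7260, 6711, 6790 and 6394 counts in knockdown, with no overlap, and rose from 193.8 ± 2.43 to 305.8 ± 29.7 CPM (log2 fold change 0.66 ± 0.07, edgeR adjusted p = 2.16e-07). SNHG10, which contains the Cajal body RNA SCARNA13, had 151, 170, 131 and 160 counts in control and 292, 275, 240 and 224 counts in knockdown. Every knockdown library was above every control library (log2 fold change 0.74 ± 0.09, adjusted p = 3.86e-08). SNHG5 had 425, 471, 434 and 523 counts in control and 800, 831, 657 and 643 counts in knockdown, again with no overlap (log2 fold change 0.64 ± 0.06, adjusted p = 2.77e-10). SNHG29 and SNHG10 overlap LRRC75A and GLRX5, each on the opposite strand; use of strand in counting is not given in the sources used here.

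Shown here are 5 of the snoRNAs carried by SNHG26, SNHG5 and SNHG29, as examples of what these changed hosts carry; SNORD50A in SNHG5 and SCARNA13 in SNHG10 are not shown. All are of the box C/D class, which fibrillarin (FBL) uses to methylate ribosomal RNA. The capitals mark the first GATGA, which overlaps the C box, and the last CTGA, the D box. They are GENCODE 29 transcripts on GRCh38, 5′ to 3′, at chr7:22856613-22856686 (plus) for SNORD93, chr6:85677589-85677658 (minus) for SNORD50B, and chr17:16440036-16440106, chr17:16439505-16439576 and chr17:16441226-16441298 (plus) for SNORD49A, SNORD49B and SNORD65.
SNORD93 in SNHG26: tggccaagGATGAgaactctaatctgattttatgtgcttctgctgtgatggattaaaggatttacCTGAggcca
SNORD50B in SNHG5: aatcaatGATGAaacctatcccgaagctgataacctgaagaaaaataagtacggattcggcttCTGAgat
SNORD49A in SNHG29: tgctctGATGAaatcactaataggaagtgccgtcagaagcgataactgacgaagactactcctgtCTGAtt
SNORD49B in SNHG29: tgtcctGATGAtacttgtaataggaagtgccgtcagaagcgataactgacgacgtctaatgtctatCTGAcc
SNORD65 in SNHG29: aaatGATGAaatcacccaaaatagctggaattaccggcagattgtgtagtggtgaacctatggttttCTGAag
SNORD49A and SNORD49B, which lie in the same host, share a run of 35 bases, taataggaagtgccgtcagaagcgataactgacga.

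Of the most abundant snoRNA hosts, SNHG29 rose as given, while GAS5, SNHG1 and ZFAS1 had log2 fold changes of 0.09, 0.23 and -0.15. Per kilobase of exon, GAS5 was the highest of the 72 genes in control at 60.3 CPM per kb, followed by SNHG8 at 57.4, SNHG29 at 51.6, SNHG32 at 43.3 and ZFAS1 at 41.6 CPM per kb. GAS5 (chr1:173863900-173868882, minus strand), which carries 11 RefSeq snoRNAs and accumulates in growth-arrested cells, had 4827, 4801, 4403 and 5316 counts in control and 5534, 5516, 4714 and 4960 counts in knockdown. Its CPM groups overlapped, at 219.0 ± 8.25 and 232.3 ± 6.22 CPM (log2 fold change 0.09 ± 0.03, edgeR adjusted p = 0.0312; exact permutation p = 0.0571). The call on GAS5 was lost without control replicate 1, 2 or 3 or knockdown replicate 1 or 3, with adjusted p between 0.0593 and 0.100 and log2 fold changes between 0.06 and 0.09. SNHG1 (chr11:62851988-62855914, minus strand), with 9 snoRNAs, had 2777, 2851, 2492 and 3368 counts in control and 3640, 3596, 3042 and 3275 counts in knockdown. Its CPM did not overlap between groups (log2 fold change 0.23 ± 0.06, adjusted p = 0.000256). The other snoRNA hosts called higher were SNHG25, SNHG19, SNHG3, SNHG8 and SNHG20, with log2 fold changes of 0.56, 0.41, 0.38, 0.28 and 0.22. The call on SNHG25 was lost with DESeq2 (adjusted p = 0.178) and without control replicate 1 or 4 or knockdown replicate 2 or 4 (adjusted p between 0.0614 and 0.138). SNHG3 lies within RCC1 and SNHG20 overlaps SEC14L1, both on the same strand, so counting could split reads between them.

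Of the snoRNA hosts called lower, SNHG15 fell most, from 59.1 ± 2.22 to 46.2 ± 2.13 CPM, with no overlap (log2 fold change -0.36 ± 0.04, edgeR adjusted p = 1.55e-07). ZFAS1 (chr20:49278178-49295738, plus strand), which starts antisense to ZNFX1 and carries 3 snoRNAs, had 2054, 2064, 1954 and 2154 counts in control and 1967, 2054, 1651 and 1807 counts in knockdown. Scaled to library size these are 93.2 ± 0.636 and 83.7 ± 0.290 CPM, a narrow spread and no overlap (log2 fold change -0.15 ± 0.01, adjusted p = 0.000422). The call on ZFAS1 was lost with library totals in place of TMM (log2 fold change -0.07, adjusted p = 0.0719). SNHG12, SNHG17 and SNHG32 had log2 fold changes of -0.19, -0.15 and -0.13, and these calls too were lost with library totals. The call on SNHG32 was also lost without knockdown replicate 3 (-0.10, adjusted p = 0.0675). SNHG7, SNHG11, SNHG16 and SNHG21 were not called, with log2 fold changes between -0.26 and -0.05, although SNHG21 was called lower without control replicate 4 or knockdown replicate 2 (adjusted p = 0.0481 and 0.0387).

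Several snoRNA host genes, like ribosomal protein genes, begin with a C followed by a run of pyrimidines (a 5′ TOP start), which couples translation of the RNA to growth signals. At the RefSeq starts on GRCh38.p14, a C that opens a run of at least 5 bases of C or T stood at the first base of 5 of 21 snoRNA host promoters (23.8%), beside 4.07% of all 35116 promoters in the table. The starts are shown with 20 bases before and 40 bases from the start on the gene's strand, and capitals mark the run.
SNHG12, chr1:28581834-28581893 (minus): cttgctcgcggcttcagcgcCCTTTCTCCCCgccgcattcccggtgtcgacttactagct
SNHG32, chr6:31834896-31834955 (plus): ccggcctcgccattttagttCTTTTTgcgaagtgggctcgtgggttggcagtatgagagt
SNHG19, chr16:2155319-2155378 (minus): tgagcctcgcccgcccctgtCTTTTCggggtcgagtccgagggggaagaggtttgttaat
SNHG5, chr6:85678694-85678753 (minus): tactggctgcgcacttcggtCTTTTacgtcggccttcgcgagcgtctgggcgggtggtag
ZFAS1, chr20:49278622-49278681 (plus): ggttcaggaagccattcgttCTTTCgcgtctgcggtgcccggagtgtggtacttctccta
Of these genes SNHG5 and SNHG19 were higher in knockdown, and SNHG12, SNHG32 and ZFAS1 were lower, with a median log2 fold change of -0.13. The 13 other tested snoRNA hosts with a promoter entry had a median of 0.22, with 8 higher, 1 lower and 4 not called. Over all genes tested, 39.4% were higher and 37.7% lower. The split rests on the exact first base in RefSeq. For GAS5, among the 13, the RefSeq window (chr1:173869006-173869065, minus) lies upstream of the GENCODE span, which ends at 173868882. SNHG1, SNHG7 and SNHG26, also among the 13, had runs of 3, 4 and 4 bases. Hosts could change sides with other starts, so the medians do not separate hosts with and without a 5′ TOP start. The difference between the medians was not tested, and a run of these letters in a window is a description of sequence.

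**Figure D2:**
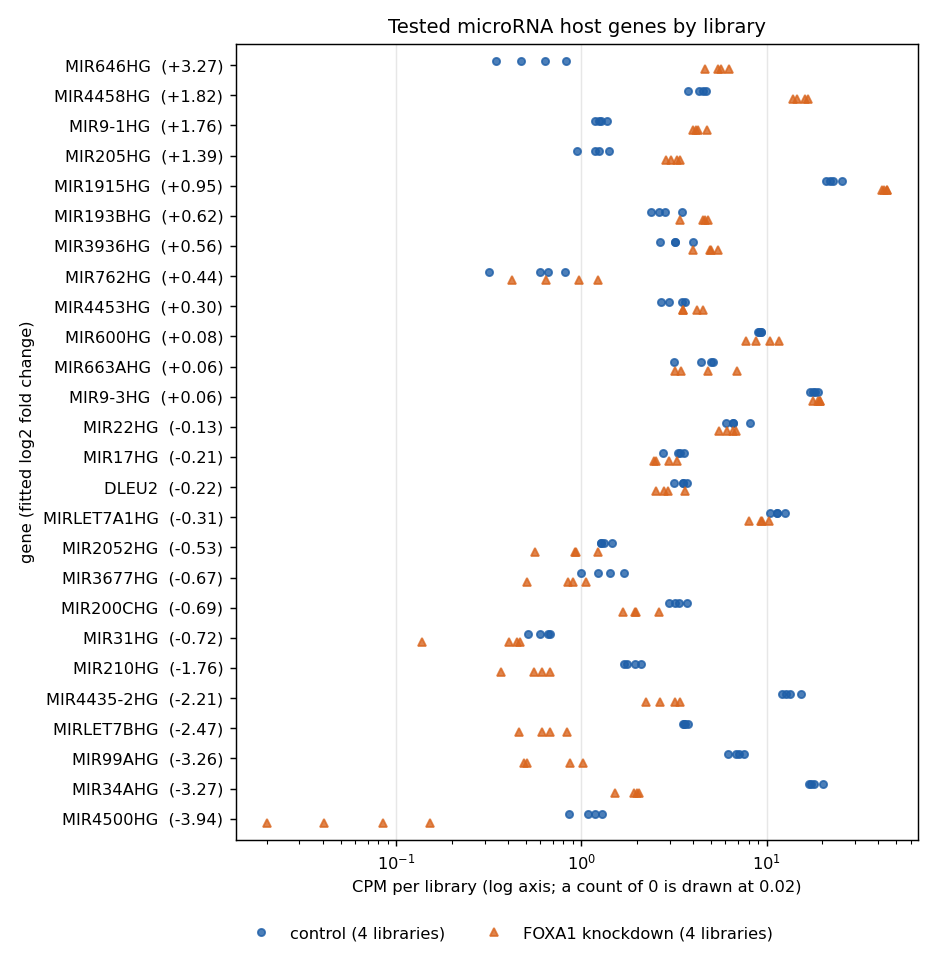
CPM of each tested microRNA host in the 4 control (circles) and 4 FOXA1 knockdown (triangles) libraries on a log axis, with the fitted log2 fold change beside each name; a library with a count of 0 is drawn at 0.02. The groups lie apart at both ends of the plot, for MIR646HG with a log2 fold change of 3.27 and for MIR34AHG with -3.27, and overlap in the middle.

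Per kilobase of exon the highest levels among the 26 tested microRNA hosts in control were those of MIR200CHG at 9.47, MIRLET7A1HG at 7.99 and MIR1915HG at 5.99 CPM per kb. In knockdown MIR1915HG was the highest of these at 11.5 CPM per kb. Among microRNA hosts, the largest falls were in hosts of miR-34a and of some let-7 family members. MIR34AHG (chr1:9148011-9198906, minus strand), the primary transcript of the p53-induced miR-34a, had 442, 384, 356 and 422 counts in control and 47, 50, 38 and 33 counts in knockdown. Every knockdown library was far below every control library, with means of 18.2 ± 1.46 and 1.87 ± 0.238 CPM, so 10.3% of control was left (log2 fold change -3.27 ± 0.11, edgeR adjusted p = 9.30e-20). It overlaps LNCTAM34A on the opposite strand, which had a mean of 6.25 counts.

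MIR99AHG (chr21:15928296-16645065, plus strand) contains the hairpins of miR-99a and let-7c within introns. It had 155, 167, 130 and 159 counts in control and 24, 12, 17 and 11 counts in knockdown, which do not overlap, with means of 6.92 ± 0.585 and 0.720 ± 0.263 CPM (log2 fold change -3.26 ± 0.27, adjusted p = 4.64e-15). MIRLET7BHG (chr22:46053869-46113928, plus strand), whose exons hold the hairpins of let-7a-3 and let-7b, had 78, 78, 79 and 84 counts in control and 16, 15, 9 and 18 counts in knockdown. The control libraries were close to each other and all above the knockdown libraries (log2 fold change -2.47 ± 0.17, adjusted p = 5.11e-12). MIRLET7BHG overlaps PRR34-AS1, with a mean of 73.75 counts, over 3342 bp on the same strand, so counting could split reads between them. MIR4500HG on chromosome 13 had 26, 19, 23 and 30 counts in control and 2, 1, 3 and 0 counts in knockdown. Its knockdown libraries were all at or under 3 counts, so it was at least 7.26-fold lower (adjusted p = 6.34e-09), and it passed the count filter through its control libraries alone. This bound too lies below the median log2 fold changes of the 48 genes and of the 26 microRNA hosts. Setting MIR4500HG at it therefore leaves these at -0.05 and -0.17 and is no check on them.

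The mature microRNAs of these falling hosts are shown with their seed in capitals, from RefSeq, because 4 of them share a seed. The hosts of these 4, MIR99AHG, MIRLET7BHG and MIR4500HG, lie on different chromosomes, and MIRLET7BHG carries both let-7a-5p and let-7b-5p.
hsa-let-7c-5p in MIR99AHG, chr21:16539838-16539859 (plus): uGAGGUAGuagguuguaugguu
hsa-let-7a-5p in MIRLET7BHG, chr22:46112752-46112773 (plus): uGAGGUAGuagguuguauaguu
hsa-let-7b-5p in MIRLET7BHG, chr22:46113691-46113712 (plus): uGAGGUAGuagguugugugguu
hsa-miR-4500 in MIR4500HG, chr13:87618671-87618687 (minus): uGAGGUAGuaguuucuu
hsa-miR-99a-5p in MIR99AHG, chr21:16539101-16539122 (plus): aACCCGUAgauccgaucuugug
hsa-miR-34a-5p in MIR34AHG, chr1:9151735-9151756 (minus): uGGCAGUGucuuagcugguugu
The seed GAGGUAG is that of the let-7 family, whose mature forms are high in differentiated cells and are held down by LIN28 proteins. MIR100HG, which carries another let-7a hairpin, had between 6 and 14 counts in any library and was not tested. MIRLET7IHG, recognised only through the Ensembl table, was not called (log2 fold change -0.31, adjusted p = 0.208). MIRLET7A1HG, at 7.99 CPM per kb in control, fell by only 0.31 on the log2 scale (edgeR adjusted p = 0.00207). In control MIR99AHG, MIRLET7BHG and MIR4500HG stood lower, at 0.609, 0.631 and 0.339 CPM per kb. Mature microRNAs are not measured by this library type, so their levels in these cells are not known from the table.

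MIR4435-2HG (chr2:111036776-111523376, minus strand), also known as MORRBID, lies beside the pro-death gene BCL2L11. It had 292, 339, 269 and 283 counts in control and 63, 83, 44 and 69 counts in knockdown. The groups were far apart, at 13.4 ± 1.39 and 2.87 ± 0.521 CPM (log2 fold change -2.21 ± 0.15, edgeR adjusted p = 2.40e-15). It overlaps BCL2L11 and ACOXL on the opposite strand, with means of 772.75 and 152.625 counts. MIR210HG, the host of the hypoxia-induced miR-210, had 37, 39, 41 and 49 counts in control and 16, 9, 12 and 12 counts in knockdown (log2 fold change -1.76 ± 0.20, adjusted p = 1.21e-07). MIR200CHG (chr12:6963246-6964447, plus strand) carries miR-200c and miR-141, which repress the mesenchymal factors ZEB1 and ZEB2. It had 65, 71, 71 and 86 counts in control and 46, 48, 33 and 57 counts in knockdown, and its CPM did not overlap between groups (log2 fold change -0.69 ± 0.15, adjusted p = 0.000269). MIR31HG, MIR3677HG and MIR2052HG were also lower, with log2 fold changes of -0.72, -0.67 and -0.53, on at most 37 counts in any library and adjusted p between 0.0146 and 0.0489. With DESeq2 none of these 3 was called, at adjusted p = 0.208, 0.0819 and 0.156 in that order. Leaving out 1 library also ended the call on MIR31HG (all but control replicate 4 and knockdown replicates 1 and 2, adjusted p between 0.0668 and 0.184), on MIR2052HG (control replicates 1 and 4 and knockdown replicates 1, 3 and 4, adjusted p between 0.0576 and 0.140) and on MIR3677HG (control replicate 1 and knockdown replicate 3, adjusted p = 0.0656 and 0.0619).

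MIR646HG (chr20:60087840-60527458, plus strand) rose most among the microRNA hosts. It had 18, 14, 10 and 8 counts in control and 109, 139, 108 and 136 counts in knockdown, with no overlap, and went from 0.569 ± 0.207 to 5.52 ± 0.686 CPM (log2 fold change 3.27 ± 0.28, edgeR adjusted p = 3.81e-14). MIR4458HG (chr5:8450743-8463095, plus strand) had 99, 104, 91 and 88 counts in control and 379, 342, 329 and 318 counts in knockdown. Its groups were also apart, at 4.34 ± 0.401 and 15.4 ± 1.25 CPM (log2 fold change 1.82 ± 0.09, adjusted p = 1.51e-15). MIR1915HG (chr10:21492658-21497262, minus strand) had 479, 465, 536 and 528 counts in control and 996, 1100, 853 and 969 counts in knockdown. It rose from 22.8 ± 1.88 to 43.9 ± 1.27 CPM with no overlap (log2 fold change 0.95 ± 0.06, adjusted p = 3.66e-14).

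Of the hosts of miR-9, MIR9-1HG rose and MIR9-3HG was not called. MIR9-1HG (chr1:156404250-156430701, minus strand) had 26, 28, 29 and 29 counts in control and 98, 117, 84 and 87 counts in knockdown, a rise with no overlap (log2 fold change 1.76 ± 0.07, edgeR adjusted p = 4.09e-11). MIR9-3HG on chromosome 15 had 389, 405, 401 and 401 counts in control and 420, 477, 371 and 419 counts in knockdown, with overlapping CPM (log2 fold change 0.06 ± 0.04, adjusted p = 0.351), although it was called higher with library totals in place of TMM (0.15, adjusted p = 0.0299). Both carry a hairpin for the same mature microRNA, and per kilobase of exon MIR9-3HG stood at 2.49 and MIR9-1HG at 0.103 CPM per kb in control. MIR205HG, the host of the epithelial miR-205, had 26, 31, 20 and 29 counts in control and 72, 83, 56 and 71 counts in knockdown (log2 fold change 1.39 ± 0.13, adjusted p = 3.96e-08). MIR193BHG, MIR3936HG and MIR4453HG were the other microRNA hosts called higher, with log2 fold changes of 0.62, 0.56 and 0.30 and overlapping groups. MIR4453HG was not called with DESeq2 (adjusted p = 0.168) or voom (adjusted p = 0.0573), nor with edgeR without control replicate 1 or 3 or knockdown replicate 3 or 4 (adjusted p between 0.100 and 0.155). A mature sequence from each of 4 rising hosts and those of miR-200c-3p and miR-210-3p are given, as a subset, for comparison with those of the falling hosts, with the seed in capitals.
hsa-miR-646 in MIR646HG, chr20:60308534-60308552 (plus), higher: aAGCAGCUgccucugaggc
hsa-miR-9-5p in MIR9-1HG, chr1:156420392-156420414 (minus), higher: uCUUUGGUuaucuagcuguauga
hsa-miR-205-5p in MIR205HG, chr1:209432166-209432187 (plus), higher: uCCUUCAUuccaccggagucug
hsa-miR-1915-3p in MIR1915HG, chr10:21496576-21496595 (minus), higher: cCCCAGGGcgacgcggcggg
hsa-miR-200c-3p in MIR200CHG, chr12:6963742-6963764 (plus), lower: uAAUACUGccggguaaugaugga
hsa-miR-210-3p in MIR210HG, chr11:568112-568133 (minus), lower: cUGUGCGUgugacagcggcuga
None of the seeds in these 6 lines is the let-7, miR-99a or miR-34a seed. MIR4458HG, which also rose, had no hairpin in the RefSeq entries used here, so its seed was not compared.

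DLEU2 and MIR17HG, the hosts on chromosome 13 of miR-15a and miR-16-1 and of the miR-17-92 cluster, were not called. DLEU2 (chr13:49982552-50125720, minus strand), named for its deletion in chronic lymphocytic leukaemia, had 77, 78, 67 and 86 counts in control and 66, 72, 50 and 79 counts in knockdown, with overlapping CPM (log2 fold change -0.22 ± 0.12, edgeR adjusted p = 0.136). Without knockdown replicate 4 it was called lower (log2 fold change -0.33, adjusted p = 0.0369). DLEU2 overlaps DLEU1, TRIM13 and KCNRG on the opposite strand, of which TRIM13 had a mean of 428 counts. MIR17HG (chr13:91347820-91354579, plus strand) had 78, 73, 72 and 64 counts in control and 70, 60, 65 and 55 counts in knockdown, again overlapping in CPM (log2 fold change -0.21 ± 0.13, adjusted p = 0.170). MIR22HG, MIR600HG, MIR663AHG and MIR762HG were not called either, with log2 fold changes between -0.13 and 0.44.

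A search of the RefSeq windows from 250 bases before to 50 bases after each start for the forkhead core TGTTTAC, or GTAAACA on the other strand, found it in 3 of 78 windows (3.85%), which cover 61 of the 72 genes and 44 of the 48 tested, beside 3.42% of all 35116 windows. Among the 44 tested genes with a window, MIR99AHG had a match, at 1 of its 6 annotated starts, where the match begins at base -221 from the start; capitals mark it in the window at chr21:16070868-16070924 (plus strand, GRCh38.p14).
MIR99AHG: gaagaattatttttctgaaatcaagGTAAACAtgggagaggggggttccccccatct
A match is a description of letters and not of binding, and these windows leave out distal enhancers.

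**Figure D3:**
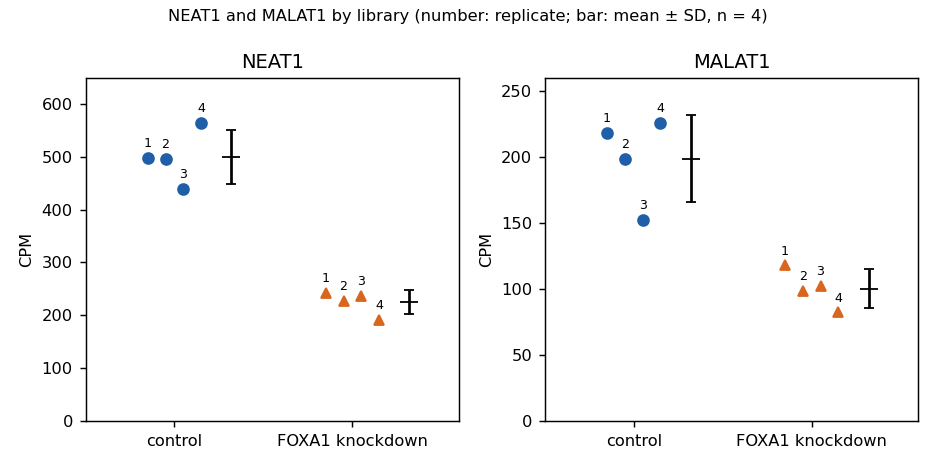
CPM of NEAT1 (left) and MALAT1 (right) in each library, numbered by replicate, with the mean ± SD of the 4 libraries of each group. NEAT1 is near 499.6 CPM in control and 224.4 CPM in knockdown, MALAT1 is near 198.6 and 100.1 CPM, and no knockdown library reaches a control library.

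NEAT1 and MALAT1, neighbours on chromosome 11, both fell. NEAT1 (chr11:65422774-65445540, plus strand) had 10902, 10935, 9277 and 13103 counts in control and 5702, 5562, 4650 and 4151 counts in knockdown. Every knockdown library was below every control library, at 499.6 ± 50.7 and 224.4 ± 22.6 CPM, 44.9% of control (log2 fold change -1.15 ± 0.11, edgeR adjusted p = 3.26e-05). MALAT1 (chr11:65497688-65506516, plus strand) had 4771, 4372, 3210 and 5240 counts in control and 2775, 2404, 2012 and 1777 counts in knockdown. Again the groups did not overlap, at 198.6 ± 33.0 and 100.1 ± 14.7 CPM, 50.4% of control (log2 fold change -0.99 ± 0.17, adjusted p = 0.00128). For both RNAs control replicate 3 was the lowest and replicate 4 the highest of the control libraries, and knockdown replicate 4 was the lowest of all. Without control replicate 3 the log2 fold changes were -1.22 for NEAT1 and -1.10 for MALAT1. Per kilobase of exon they stood at 21.9 and 22.5 CPM per kb in control and at 9.86 and 11.3 CPM per kb in knockdown. The libraries were made for mRNA and the counts are per gene, so transcript forms of NEAT1 or MALAT1 are not told apart.

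Genes for proteins of these nuclear bodies were mostly higher in knockdown. Of 12 paraspeckle protein genes 9 were higher, 1 lower and 2 not called, with a median log2 fold change of 0.25, so 83.3% were called, beside 77.1% of all genes tested, of which 39.4% were higher. NUDT21 and SFPQ, which process or bind NEAT1, rose by 0.72 and 0.65 on the log2 scale, and SMARCA4, a chromatin remodeller found in paraspeckles, fell by 0.81. Of 8 nuclear speckle genes 6 were higher, 0 lower and 2 not called, with a median of 0.43. The splicing factor SRSF1 was the largest of these at 0.55. The lists were chosen with earlier results of these data known.

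Genes that build and use snoRNAs and microRNAs were mostly higher in knockdown. All 4 core proteins of box C/D particles were higher, with FBL, the methyltransferase, at a log2 fold change of 1.22, NOP58 at 0.48, SNU13 at 0.29 and NOP56 at 0.25. All 4 core proteins of box H/ACA particles, which make pseudouridine, were higher, with NHP2 at 1.07, GAR1 at 0.73, DKC1 at 0.44 and NOP10 at 0.20. Of 12 snoRNP assembly genes 9 were higher, 1 lower and 2 not called. The nucleolar protein TCOF1 rose by 1.18, the helicase RUVBL1 by 0.86 and RPAP3 by 0.62 on the log2 scale, and the box C/D factor ZNHIT6 fell by 0.42. NHP2 and TCOF1 lie on chromosome 5 among genes that were higher, with neighbour medians of 0.56 and 0.47. The share of all genes tested that were higher was 39.4%, as above, and no list was tested as a set.

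Of 14 microRNA processing and effector genes 11 were higher, 2 lower and 1 not called, with a median log2 fold change of 0.28. The share called was 92.9%, beside 77.1% of all genes tested, and 39.4% of all genes tested were higher and 37.7% lower. The Argonaute genes AGO2 and AGO3 rose by 0.59 and 0.58, and RAN and TARBP2 by 0.46 and 0.45 on the log2 scale, while TNRC6C, a scaffold of silencing complexes, fell by 1.14 and AGO4 by 0.41. DROSHA, DGCR8, XPO5 and DICER1, which act on the hairpin, were higher by 0.19, 0.25, 0.36 and 0.30. Their neighbour medians were 0.41, 0.05, 0.14 and 0.04, so DROSHA, on chromosome 5, rose less than its neighbours. Nonsense-mediated decay genes went both ways, with 5 of 14 higher, 3 lower and 6 not called and a median of 0.03. The share called, 57.1%, was below the 77.1% of all genes tested. In this list UPF2 rose by 0.72 and MAGOH and SMG8 by 0.42 each, and UPF3A, on chromosome 13, fell by 0.64. The neighbour medians of UPF2, MAGOH, SMG8 and UPF3A were 0.66, -0.23, 0.13 and -0.53. Of 5 genes for binding of 5′ TOP mRNAs, 4 were tested and 3 were higher, with LARP1 at 0.26 and CNBP at 0.39. The share called was 75%, beside the same 77.1%.

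Small RNAs are also hosted by protein-coding genes outside the 72. Among the 72, MIR1915HG and MIR9-1HG are themselves annotated as protein-coding in GENCODE 29. Of 22 protein-coding snoRNA hosts outside the ribosomal proteins 11 were higher, 7 lower and 4 not called, with a median log2 fold change of 0.09. The share called was 81.8%, beside 77.1% of all genes tested, and 0 changed at least 2-fold, beside 28.3% of all genes tested. The chaperone HSPA9 rose by 0.92 and the ribosome-associated RACK1 by 0.71 on the log2 scale, both on chromosome 5, while TPT1 on chromosome 13 fell by 0.67 and the elongation factor EEF2 by 0.60. Of 28 protein-coding microRNA hosts 26 were tested, of which 12 were higher, 9 lower and 5 not called, with a median of 0.08. SLIT3, at 0 or 1 counts in control, was at least 19.1-fold higher. The imprinted gene MEST rose by 1.01 and TLN2, a cytoskeletal linker, by 1.68 on the log2 scale, while SREBF1, the lipid synthesis regulator that hosts miR-33b, fell by 1.23 and AOPEP by 1.22.

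**Figure D4:**
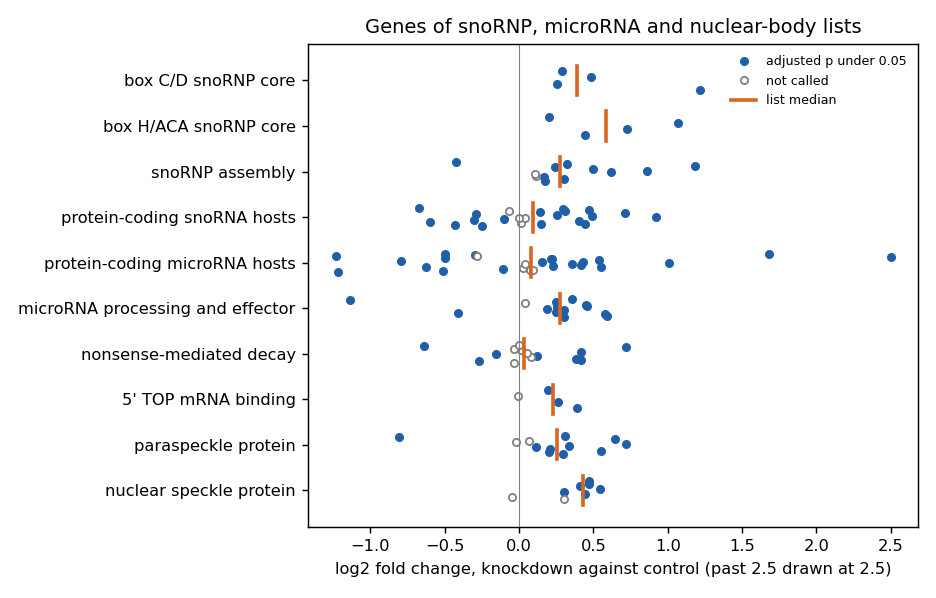
Log2 fold change of each tested gene of 10 lists, knockdown against control, with filled points past an adjusted p of 0.05, open points not called and a bar at the list median. The box C/D and box H/ACA core genes all lie above 0, with medians of 0.39 and 0.58, while both lists of protein-coding hosts spread to either side of 0; SLIT3, past 2.5, is drawn at 2.5.

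In these cells fold changes run together along some chromosome arms, so each host was set beside the median log2 fold change of its 50 nearest tested genes. Several of the hosts with the largest changes did not share them with their neighbours. The neighbour median was -0.21 for SNHG26, 0.00 for MIR646HG, 0.12 for MIR34AHG, 0.10 for MIR99AHG and 0.22 for MIR4435-2HG. For MIR4500HG, MIR210HG and MIR4458HG it was -0.36, -0.37 and 0.38, smaller than the change of the host but in the same direction. Where tested genes are sparse the 50 lie far off, up to 12752878 bp away for MIR99AHG. MIR3936HG (chr5:132311285-132369916, minus strand) had 70, 71, 56 and 93 counts in control and 94, 133, 99 and 107 counts in knockdown, and overlapped in CPM (log2 fold change 0.56 ± 0.15, edgeR adjusted p = 0.000509), but its neighbours had a median of 1.11. With that median as an offset, MIR3936HG was lower (log2 fold change -0.54, adjusted p = 0.000873).

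The same offset changed other hosts whose regions moved. DLEU2 and MIR17HG, with neighbour medians of -0.43 and -0.40, changed sign to 0.21 and 0.18 and were again not called. ZFAS1, with a neighbour median of -0.28, turned to 0.13 and was called higher (edgeR adjusted p = 0.00267). GAS5, with a neighbour median of -0.43, went from 0.09 to 0.51, and MIR1915HG, with a neighbour median of 0.59, from 0.95 to 0.36 on the log2 scale. MIR9-3HG was called higher (0.63, adjusted p = 6.86e-10) and MIRLET7A1HG was no longer called (0.12, adjusted p = 0.218). NEAT1 and MALAT1, with neighbour medians of -0.36 and -0.30, were at -0.79 and -0.69 and again called lower. Of the 37 calls, 32 were made again in the same direction under the offset, 2 were reversed, 3 were lost and 5 further genes were called.

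**Figure D5:**
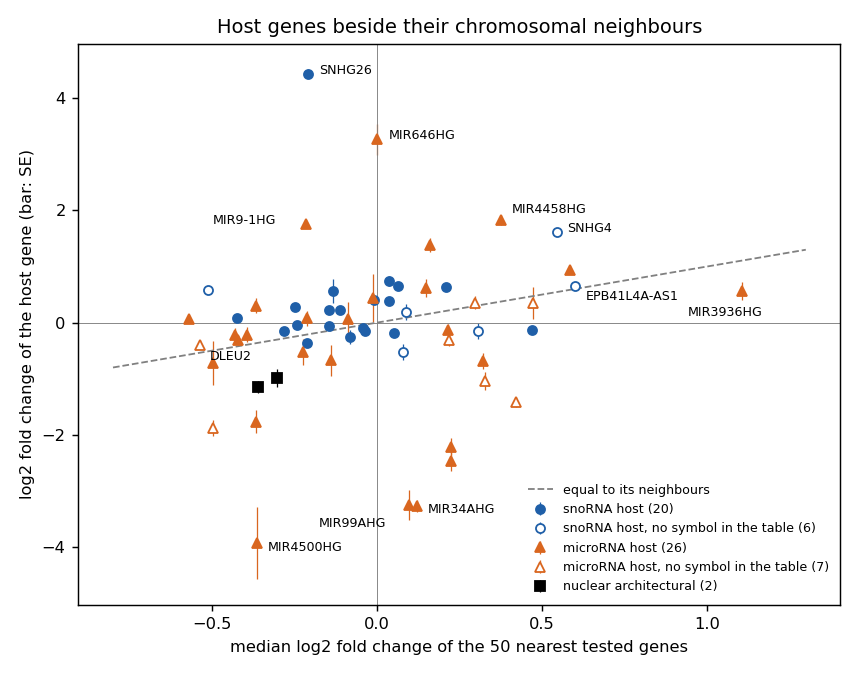
Fitted log2 fold change (± SE) of each tested host gene against the median log2 fold change of its 50 nearest tested genes, with a dashed line where both are equal; open symbols are hosts without a symbol in the count table. SNHG26 at 4.44 and MIR34AHG at -3.27 lie far from the line, while MIR3936HG lies below it with a neighbour median of 1.11; MIR4500HG is drawn at its fitted value although its knockdown counts are at the floor.

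The 21 hosts without a symbol in the table included 13 that could be tested, of which 4 were higher, 5 lower and 4 not called, a called share of 69.2% beside 77.1% of all genes tested. A change of at least 2-fold was called for 30.8% of them, beside 28.3% of all genes tested. SNHG4, on chromosome 5 inside the span of MATR3 on the same strand, had 696, 689, 634 and 819 counts in control and 2210, 2450, 1868 and 2220 counts in knockdown, with no overlap (log2 fold change 1.61 ± 0.06, edgeR adjusted p = 5.82e-20). It overlaps MATR3, so counting could split reads between them. EPB41L4A-AS1 (chr5:112160526-112164276, plus strand), the host of SNORA13, had 505, 489, 426 and 522 counts in control and 873, 790, 640 and 790 counts in knockdown, again with no overlap (log2 fold change 0.65 ± 0.07, adjusted p = 2.29e-10). Its neighbours had a median of 0.60, and with the offset its value was 0.06 (adjusted p = 0.401). SNHG6 rose by 0.57 on the log2 scale, and by 1.09 with the offset. MIR23AHG, the host of the miR-23a cluster, was higher by 0.36, and not called with the offset (0.06, adjusted p = 0.568).

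MIR130AHG, MIR29B2CHG and MIR503HG were the largest falls among these 13. MIR130AHG overlaps CLP1, with a mean of 354.75 counts, over 3799 bp on the same strand, so counting could split reads between them. MIR29B2CHG, whose miR-29 products repress collagen genes, had 210, 247, 192 and 232 counts in control and 88, 100, 67 and 79 counts in knockdown, with no overlap (log2 fold change -1.42 ± 0.08, edgeR adjusted p = 1.67e-12). MIR503HG, which holds the miR-503 hairpin in an intron on the X chromosome, had 133, 105, 101 and 163 counts in control and 65, 58, 56 and 66 counts in knockdown (log2 fold change -1.04 ± 0.16, adjusted p = 2.17e-07). MIR130AHG had 28, 23, 29 and 34 counts in control and between 7 and 8 counts in knockdown (log2 fold change -1.88 ± 0.14, adjusted p = 4.13e-07) and passed the count filter through its control libraries alone. SNHG14, the host of the imprinted snoRNA clusters on chromosome 15, was lower with overlapping groups (log2 fold change -0.53 ± 0.14, adjusted p = 0.000106).

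The other 24 of the 72 genes, 3 snoRNA hosts and 21 microRNA hosts, did not pass the count filter. Their highest count in any library was 15, and 10 of them had 3 or fewer counts in every library. MIR924HG was counted 12, 10, 5 and 10 times in the control libraries and 0 times in each knockdown library, which is at least 2.74-fold lower against a floor of 3 counts per library. MIR3150BHG was at least 2.15-fold lower and MIR3667HG at least 2.34-fold higher on the same floor. For the rest no difference was detectable at this depth or the groups lay close to the floor.

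The RefSeq entries used here place 60 microRNA hairpins and 59 snoRNAs within the spans of the 72 genes. Such an entry was found for 35 of 47 microRNA hosts and 19 of 23 snoRNA hosts. These entries are not complete, so a host without one can still carry a small RNA. MIR663AHG and SNHG10 had none, although the genes MIR663A and SCARNA13 overlap them on the same strand. Of the hairpins, 37 lay in introns of every GENCODE 29 transcript of the host, 20 in an exon of at least 1 transcript and 3 across an exon boundary. Of the snoRNAs, 20 lay in introns, 36 in an exon of at least 1 transcript, retained-intron forms included, and 3 across a boundary. The table has 88 rows for snoRNAs, scaRNAs and microRNA genes themselves, of which 62 had 3 or fewer counts in every library and 3 were tested. SCARNA12 was called higher (log2 fold change 0.80 ± 0.47, edgeR adjusted p = 0.0359), and SNORD17 and SNORA71B, the latter within SNHG17, were not called. The libraries were made for mRNA, so these rows do not measure the mature small RNAs.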

How the data were processed

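The 8 mRNA libraries, 4 control and 4 FOXA1 knockdown, came from Trizol RNA and were read on a NextSeq550 instrument in pairs of 101 bp, per the labels' protocols. The authors deposited raw counts per gene under Ensembl identifiers with a symbol column. Per the submitters' processing notes the tools were FastQC, Salmon 1.9 and DESeq2 3.16 with the hg38 build. Their roles, the annotation and the use of strand are not given in the sources used here, and without strand the reads of overlapping genes on opposite strands cannot be told apart.

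Sample titles gave the groups, and column names matched them to count columns. Counts were compared in R 4.3.3 with edgeR 4.0.16: filterByExpr (minimum 10 counts, total 15) kept 16430 genes and removed 14004, TMM scaled the libraries (factors between 0.965 and 1.04), and the quasi-likelihood test with robust estimation was followed by Benjamini-Hochberg adjustment over all genes tested, with a threshold of 0.05. CPM is the count over the TMM-scaled total, times 1000000. Standard errors come from log2 CPM with 0.5 added to each count, and edgeR's prior count of 0.125 enters the fitted fold changes. A count of 3 per library, between 0.123 and 0.153 CPM, was the floor for bounds, which cover counting error only. The exact permutation test runs over the 70 divisions of the libraries. The common biological coefficient of variation in the model was 4.56%. On simulated counts for the 16430 genes with 200 of them changed, the procedure called 207 genes, 200 of them changed and 7 not. The simulation gave all genes the common dispersion, and the 200 had a mean of at least 50 counts and changed 2- or 4-fold. It therefore does not cover smaller changes, genes with few counts or a wider spread, or data with 77.1% of genes called.

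Positions are those of GENCODE 29 on GRCh38, matched for 29358 identifiers (96.5%). Sequences are from RefSeq (GRCh38.p14) and GENCODE 29. The member genes and all lists were chosen with earlier results of these data known. The genes given in full are the 6 named in the rule, the 12 largest called changes with a mean of at least 50 counts, the 5 highest in mean CPM, and those on chromosome 5 or 13 with at least 50 counts. SNHG5, SNHG15, MIRLET7BHG, MIR4500HG, MIR210HG, MIR205HG, MIR9-3HG and the hosts recognised only through the Ensembl table other than EPB41L4A-AS1 were chosen after their values were seen. Of each pathway list, up to 4 called genes with the largest change are named by rule, and the others named were added afterwards. Alternatives were RLE, upper-quartile and no scaling beyond library totals, no filter or a mean of at least 50 counts, DESeq2 1.42.0, voom from limma 3.58.1, no robust estimation, a replicate block, a regional offset, a threshold of 0.01 and leaving out each library.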

Additional observations from a re-analysis of the deposited data

How the results depend on the processing

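The number of the 48 tested host genes called higher or lower, the number changed at least 2-fold and the FOXA1 value stayed within 1.5 times or on the same side of the threshold under every alternative tried, except that 4 instead of 7 genes were at least 2-fold lower with a mean of at least 50 counts, where fewer genes were tested. Leaving out each library gave 31 to 37 calls, 16 to 18 of them higher and 14 to 19 lower, and 12 to 13 genes changed at least 2-fold. The median log2 fold change, -0.05, lay near 0 and moved to 0.00573 with upper-quartile scaling, 0.0300 with library totals, 0.0764 with a mean of at least 50 counts, 0.00261 with DESeq2, 0.17 with the regional offset, and between -0.07 and -0.04 without single libraries. With the regional offset DLEU2 (0.21), MIR17HG (0.18), MIR3936HG (-0.54) and ZFAS1 (0.13) reversed, and EPB41L4A-AS1 (0.06) and MIR23AHG (0.06) were no longer called. Of the 37 calls, 37 were made again with RLE scaling, 33 with upper-quartile scaling, 31 with library totals, 32 with DESeq2, 36 with voom and 29 of the 29 still tested with a mean of at least 50 counts. MIR31HG, MIR2052HG, SNHG25 and MIR4453HG were the calls lost most often.

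With the replicate number as a block, 32 of the 37 calls were made again. GAS5 (0.09, adjusted p = 0.0526 with edgeR), MIR31HG, MIR2052HG, SNHG25 and MIR4453HG lost theirs. Libraries with the same replicate number did not deviate together, with correlations of 0.02, 0.06, -0.03 and -0.00064, and 1 of the 4 numbers matched its own best, so the numbers were not treated as pairs. The cause of these differences between settings was not tested.

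Depth limits the 24 untested genes, none above 15 counts, and tested hosts with few counts such as MIR31HG, at most 15 in any library. Reads of overlapping genes cannot be told apart without strand, and mature small RNAs were not measured.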
